A study of Mus musculus with 6 samples.

Results

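The genes that encode the proteins of the cytosolic ribosome were followed in RNA-seq libraries of liver lymphocytes from mice given tamoxifen or oil. Members were the genes whose symbol begins with Rpl or Rps and a digit, together with Rplp0, Rplp1, Rplp2 and Rpsa. Names that contain -ps and the S6 kinases were left out. A member had 60 or more counts over the 6 libraries. This gave 84 of the 15601 genes in the table. A total of 87 genes matched by name, and Rpl3l with 2 counts, Rpl23a with 18 and Rpl39l with 54 fell outside the limit, while Rpl11 with 69 and Rps29 with 82 lay just inside it. By GENCODE, 82 of the 84 are protein-coding genes, and Rps4l and Rpl37rt are listed there as transcribed processed pseudogenes. Rps19bp1 matched by name but encodes a binding partner of Rps19 and is not a ribosomal protein.

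The study comprised 3 libraries of tamoxifen-treated ILC1s (cells within the group 1 innate lymphoid cells) and 3 of oil-treated ILC1s, all from liver. The series title names RORα, a nuclear receptor, and the labels give no genotype, Cre driver, age, dose or time, so what tamoxifen acts on in these animals is not stated there. Nothing in the labels says that libraries came from separate animals, and p-values then cover no more than the spread among the 6 libraries, part of which may be technical. The number of cells per library is not given either.

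The ribosome is built from a small subunit, which reads the mRNA, and a large subunit, which joins amino acids, and each carries ribosomal RNA and many proteins, most of them present in equal number. Lymphocytes that start to divide make more ribosomes, and in mammals the mRNAs of ribosomal proteins are controlled together at translation, through a pyrimidine tract at their 5′ end that responds to mTOR and Larp1. Most mammalian ribosomal protein genes have processed pseudogenes, intronless copies scattered over the genome, so that short reads from the functional gene can match several places.

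The sequence around the annotated start is shown for 5 members whose promoters come from RefSeq (GRCm38.p6). It covers the 30 bases before and 20 bases from the annotated start, 5′ to 3′ on the strand of the gene. Where present, the longest run of at least 8 C or T bases that opens with C is in capitals. Rpl4 lies at chr9:64173387-64178562 (+), Rpl13a at chr7:45125565-45128745 (-), Rps9 at chr7:3703993-3706897 (+), Rplp0 at chr5:115559467-115563727 (+) and Rps3 at chr7:99477896-99483738 (-).
Rpl4: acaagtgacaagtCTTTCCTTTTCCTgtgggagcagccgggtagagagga
Rpl13a: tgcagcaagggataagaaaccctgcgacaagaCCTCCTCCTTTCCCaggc
Rps9: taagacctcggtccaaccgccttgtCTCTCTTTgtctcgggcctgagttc
Rplp0: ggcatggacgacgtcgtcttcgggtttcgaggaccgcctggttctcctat
Rps3: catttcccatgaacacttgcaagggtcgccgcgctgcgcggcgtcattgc

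A RefSeq promoter was found for 64 of the 84 members. Such a run on the gene's own strand was present in 29 of the 64 (45.3%), against 4221 of 26961 other genes (15.7%). The run may lie wholly before the annotated start, as in Rpl4, so these are not counts of tracts within the mRNA. On the opposite strand it was present in 5 of the 64 (7.81%), against 4506 other genes (16.7%). Over the window of 250 bases before to 50 after the start and on both strands, CCGGAAG, the core bound by ETS factors such as Gabpa, was found in 24 members (37.5%) and in 2441 other genes (9.05%), and AAGATGGC, the core of Yy1 sites, in 5 members (7.81%) and in 773 other genes (2.87%). Rplp0 and Rps3 had no run of this kind in the window shown, which says only that these letters are not there. The windows and the minimum run were chosen after values had been seen. For a member the RefSeq start nearest the gene's 5′ end was used, and for another gene the first one listed. The percentages of members and other genes thus rest on unlike choices of start. For Rpl18 the start used lay 2614 bases from the gene's 5′ end.

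The sequences that matter most for reading the counts are those of the copies. For 4 ribosomal protein genes, 60 bases of the coding strand are shown beside a processed copy at another locus that held more counts, with the bases that differ in capitals.
Rpl5: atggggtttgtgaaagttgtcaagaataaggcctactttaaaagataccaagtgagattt
Gm15500: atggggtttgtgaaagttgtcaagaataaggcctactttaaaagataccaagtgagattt
Rps7: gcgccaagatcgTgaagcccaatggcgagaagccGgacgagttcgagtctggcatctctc
Gm6472: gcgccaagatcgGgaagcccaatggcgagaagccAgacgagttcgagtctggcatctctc
Rpl9: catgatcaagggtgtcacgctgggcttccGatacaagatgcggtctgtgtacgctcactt
Rpl9-ps6: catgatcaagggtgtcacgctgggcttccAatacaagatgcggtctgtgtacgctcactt
Rpl23a: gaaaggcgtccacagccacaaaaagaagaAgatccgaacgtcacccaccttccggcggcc
Rpl23a-ps3: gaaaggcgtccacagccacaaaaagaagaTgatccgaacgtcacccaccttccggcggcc

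Rpl5 (chr5:107900502-107909005, +) and Gm15500 (chr7:114705217-114706235, -) were identical over all 891 coding bases. Rps7 (chr12:28630847-28635953, -) and Gm6472 (chrX:152909505-152910155, -) shared 579 of 582 coding bases. Rpl9 (chr5:65388364-65391444, -) and Rpl9-ps6 (chr19:32465885-32466575, -) shared 575 of 576. Rpl23a (chr11:78180932-78183584, -) and Rpl23a-ps3 (chr14:34170655-34171168, +) shared 467 of 468. A read of the coding region of such a pair may match both loci equally well, and the sources used here do not state how the authors' counting assigned such reads.

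Libraries held 5358622 to 5849947 counts with tamoxifen and 5289803 to 6325899 with oil, and 13060 to 13414 genes had at least 1 count. Levels are given as CPM, the count scaled to an effective library size of 1000000 (the total of the tested genes times the TMM factor), and a count of 0 allows a level of up to 0.466 to 0.573 CPM (3 counts), depending on the library and covering counting error only. Ncr1, the activating receptor NKp46 of group 1 innate lymphoid cells, stood at 1230, 1155 and 1337 CPM with tamoxifen and 1123, 1191 and 1368 CPM with oil. All 7 markers of this group were listed, with summed levels of 2585 to 2694 CPM with tamoxifen and 2665 to 2972 CPM with oil. They were not split into markers of ILC1s and of other cells of the group, so the sum does not measure ILC1s alone. The sum is carried mostly by Ncr1 and Klrb1c. The median log2 fold change of the 7 was -0.51, and none was called by edgeR. An unadjusted p under 0.05 by edgeR was reached by 3 (3.52% of all genes). Cxcr6 stood at 126, 111 and 157 CPM with tamoxifen and 413, 201 and 478 CPM with oil. Itga1 stood at 10.6, 19.6 and 13.4 CPM with tamoxifen and 31.9, 35.5 and 32.3 CPM with oil. Itga2 stood at 12.8, 12.3 and 6.49 CPM with tamoxifen and 17.7, 27.1 and 14.0 CPM with oil. These 3 were lower with tamoxifen, with no overlap (4.35% of all genes). Klrb1c was higher with tamoxifen, also with no overlap (4.52% of all genes). It stood at 1011, 870 and 950 CPM with tamoxifen and 728, 773 and 860 CPM with oil. T cell markers (6 of 7 listed) summed to 231 to 422 CPM with tamoxifen and 205 to 316 CPM with oil, and of the B cell markers 2 of 5 were listed (Cd79b and Ighm), with sums of 366 to 400.5 CPM with tamoxifen and 398 to 486 CPM with oil. Markers of macrophages and Kupffer cells (4 of 6 listed) stayed at or below 37.8 CPM in sum. Those of endothelium (2 of 4) stayed at or below 53.2 CPM. Those of hepatocytes (3 of 5) stayed at or below 1.67 CPM and those of neutrophils (1 of 3) at or below 0.622 CPM. Ighm and, of the macrophage list, Csf1r were also lower with tamoxifen, with no overlap (4.35% of all genes). Ighm stood at 360, 383 and 388 CPM with tamoxifen and 455, 391 and 471 CPM with oil. Csf1r stood at 4.26, 3.31 and 2.10 CPM with tamoxifen and 4.98, 9.88 and 5.54 CPM with oil. Rora, which encodes RORα, stood at 18.3, 13.4 and 20.4 CPM with tamoxifen and 27.7, 24.9 and 19.9 CPM with oil (log2 fold change -0.48, SE 0.28), and the groups overlapped.

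Ribosomal protein genes took a small and variable share of the counts. They held 1.70%, 1.41% and 1.70% of the counts in the tamoxifen libraries and 1.31%, 1.19% and 1.80% in the oil libraries. The oil libraries included both the lowest share and the highest, and the group means of 1.60% ± 0.166 with tamoxifen and 1.43% ± 0.324 with oil (SD, n = 3 each) differed by less than the spread between the oil libraries. In bulk libraries such as these, fewer cells of a type and less RNA per cell cannot be told apart. The 10 members with most counts held 50.5% of the 515716 counts on all members.

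No ribosomal protein gene differed between tamoxifen and oil in the quasi-likelihood test of edgeR, with p-values adjusted over all genes by the Benjamini-Hochberg method. Of the 84 members, 83 passed the filter on low counts and were tested, and Rpl11 was not. None passed an adjusted p of 0.05 in either direction, against 1 of the 10811 tested genes higher (0.00925%) and 0 lower (0%), and the adjusted p of every member was 0.999. DESeq2 and limma-voom also called 0 members, and DESeq2 called 0.0652% of 12271 genes higher and 0.106% lower. The single member below an unadjusted p of 0.05 was Rps4l, 1 of 83 (3.52% of all genes, either direction). Every tamoxifen library lay above every oil library for 2 members, Rps4l and Rps12 (4.52% of all genes), and below for 0 members (4.35% of all genes).

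Estimates lay above 0 for 66 of the 83 members and below 0 for 17, while 49.5% of all genes had an estimate above 0. The median log2 fold change of the members was 0.14, with a range of -0.37 to 0.80, beside -0.00 over all genes tested. The small-subunit proteins (34 tested) had a median of 0.16 with 27 above 0, and the large-subunit proteins (48 tested) a median of 0.13 with 38 above 0. The median standard error of a member was 0.27, so most single estimates were smaller than their own error.

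**Figure D1:**
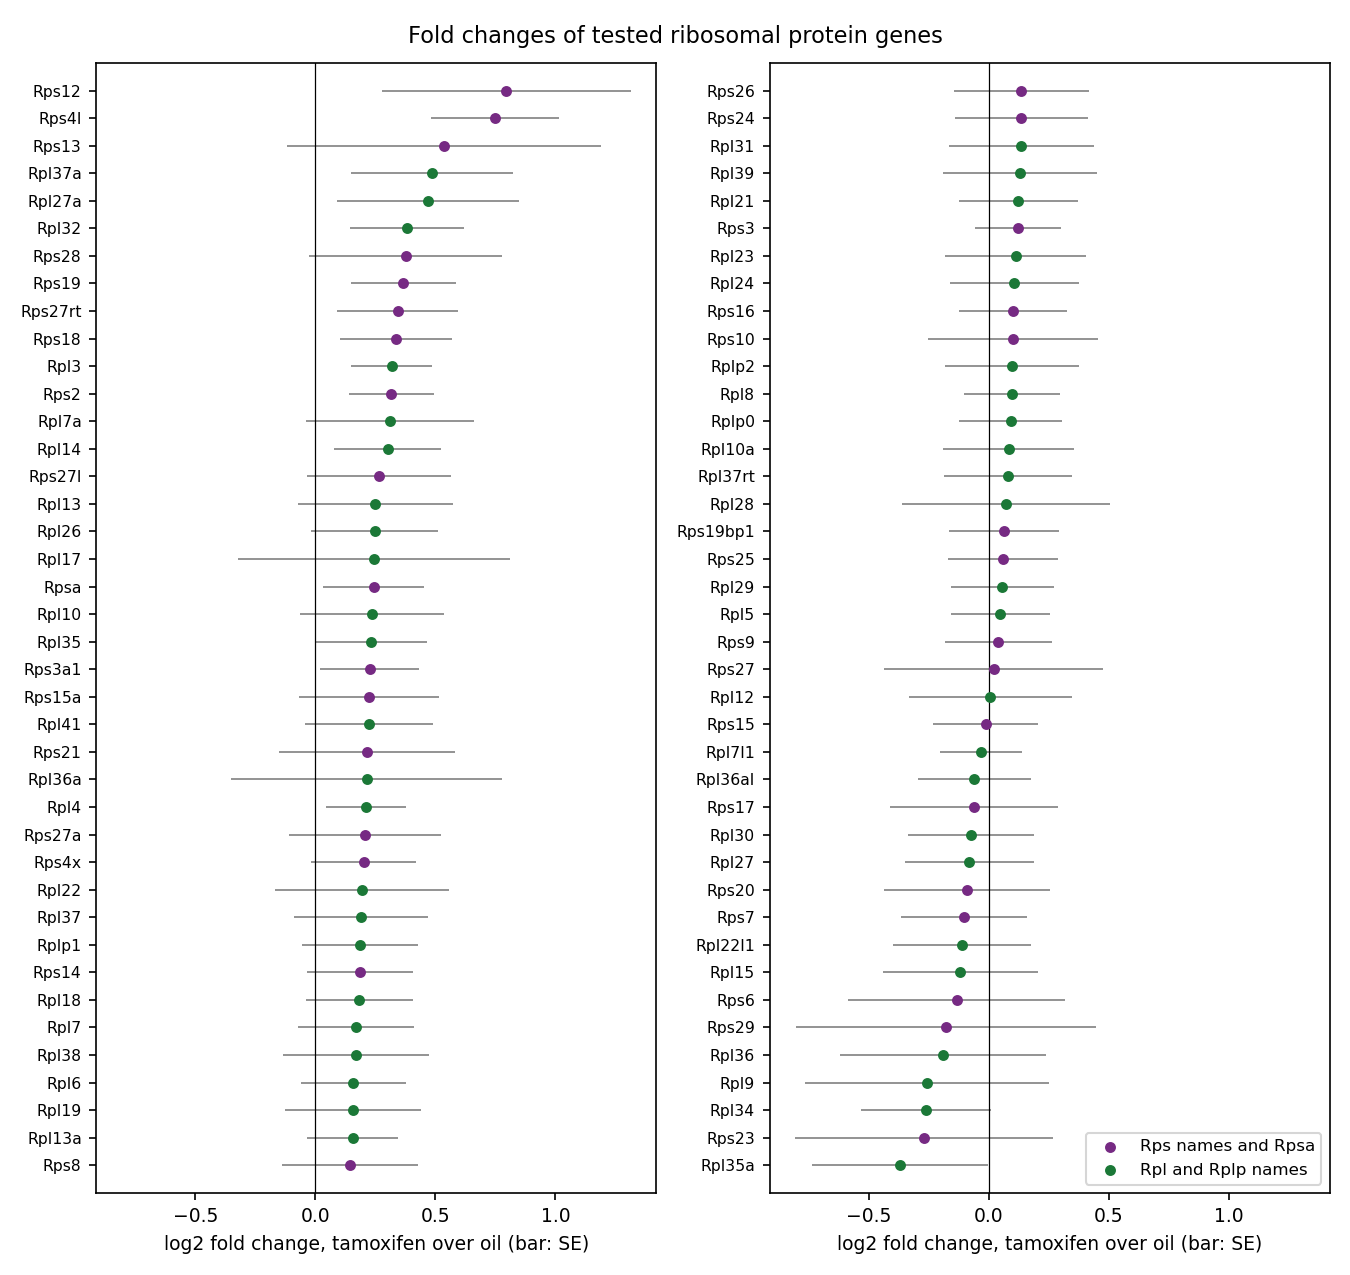
Log2 fold change of 80 of the 83 tested ribosomal protein genes, tamoxifen over oil, with the standard error from edgeR as a bar, ordered from highest (top left) to lowest (bottom right) and coloured by the subunit in the name. Estimates run from 0.80 (Rps12) to -0.37 (Rpl35a), 63 of the 80 drawn above 0, and none passed the adjusted test.

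The median depended on which oil libraries were included. Oil replicate 3 was the highest of the 6 libraries for 58 of the 83 members (21.4% of all genes) and oil replicate 2 the lowest for 57 (22.7% of all genes). For 80 members the highest library was oil replicate 3, tamoxifen replicate 1 or tamoxifen replicate 3 (50.5% of all genes), and for 80 the lowest was oil replicate 1, oil replicate 2 or tamoxifen replicate 2 (46.8% of all genes). These libraries were set apart here by the members' own values, so the counts are a description. On a scale of log2(CPM + 0.5) with each gene's mean over the 6 libraries subtracted, the median member stood at 0.19, -0.16 and 0.24 in tamoxifen replicates 1 to 3 and at -0.23, -0.39 and 0.37 in oil replicates 1 to 3. Without oil replicate 3 the median log2 fold change was 0.42, 79 of 84 members had estimates above 0 (49.0% of all genes) and 24 reached an unadjusted p under 0.05 (8.02% of all genes), with a smallest adjusted p of 0.435. Without oil replicate 2 the median was -0.02, with 40 of 83 above 0 (50.1% of all genes).

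Medians of short transcripts in general had the same sign as the member median in every library, though tamoxifen replicate 2 and oil replicate 1 changed places. Among tested genes outside the ribosome, split into 5 length classes of nearly equal size, the class with the shortest exon length (up to 1405 bases) had medians of 0.12, -0.13 and 0.15 with tamoxifen and -0.09, -0.25 and 0.26 with oil on the centred log2 scale. The class with the longest (4415 bases or more) had medians of -0.16, 0.15 and -0.10 with tamoxifen and 0.11, 0.26 and -0.13 with oil. The median length of a member's principal transcript was 705 bases. With the length slope of each library as a covariate, the median log2 fold change of the members was 0.00. In that fit 43 of 83 estimates were above 0 (52.1% of all genes). An unadjusted p under 0.05 by edgeR was reached by 6 members (7.21% of all genes), and the smallest adjusted p was 0.644. The slopes were estimated from these same counts, members included. They were -0.072, 0.067 and -0.079 with tamoxifen and 0.054, 0.134 and -0.104 with oil. In every library the sign was opposite to that of the member median. A member median near 0 in this fit is thus close to given in advance and is no test of length.

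**Figure D2:**
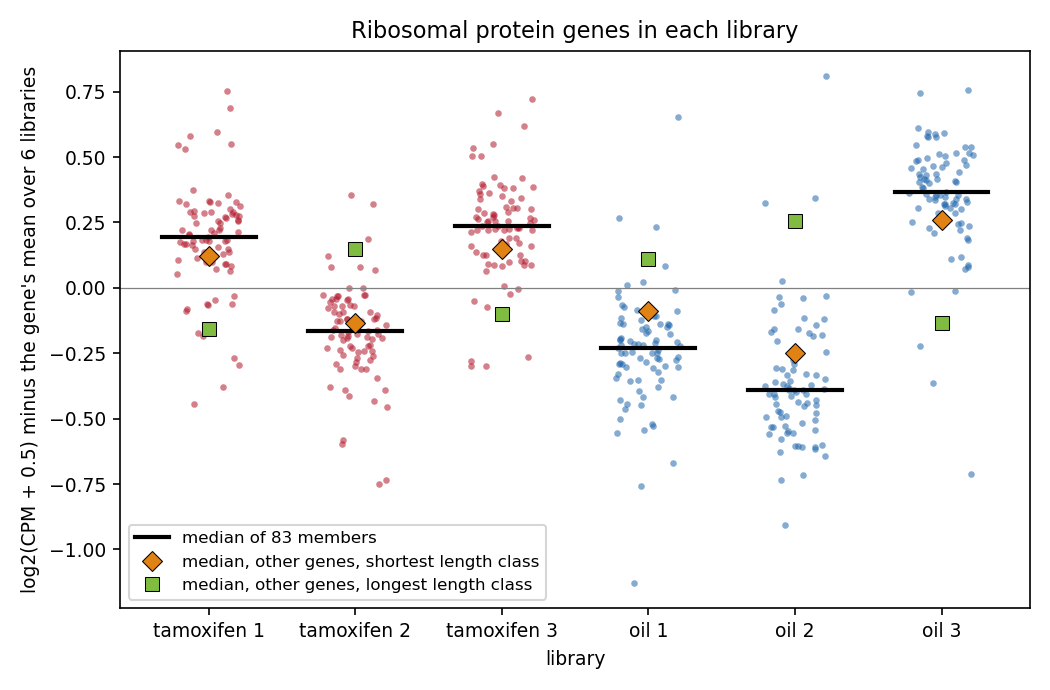
Each point is 1 of the 83 tested ribosomal protein genes in 1 library, as log2(CPM + 0.5) minus the gene's mean over the 6 libraries, with black lines at the member median and symbols at the medians of the shortest and the longest length class of other genes. Members stood highest in oil replicate 3 (median 0.37) and lowest in oil replicate 2 (median -0.39), with the tamoxifen libraries between, and the shortest length class had the same signs in every library.

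Markers of red blood cells moved with the members as well. All 4 erythroid markers on the list were highest in oil replicate 3 and lowest in oil replicate 2, and their summed level was 199.8, 74.7 and 233 CPM with tamoxifen and 136, 3.11 and 569.8 CPM with oil. Hba-a1, an alpha globin, stood at 156, 55.8 and 166 CPM with tamoxifen and 100.1, 3.11 and 407 CPM with oil, and Hbb-bs, Hbb-bt and Alas2 were at 0 in oil replicate 2. The part of these markers in the ribosomal protein values was not tested.

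Among themselves the members with many counts kept nearly fixed proportions from library to library. For the 55 members with 1000 or more counts, the median SD over the 6 libraries was 0.35 on the log2 scale. It was 0.11 once the median member of each library had been subtracted. Other genes of that abundance (5471) had a median SD of 0.26 without such a subtraction. Subtracting the members' own median tends to lower their SD, so 0.11 and 0.26 are not like measures. The SD that was left was smallest for Rps4x at 0.03, Rplp0 at 0.04 and Rps14 at 0.04. Within this group it was largest for Rpl22 at 0.36, Rps20 at 0.34 and Rpl34 at 0.26. Members with fewer counts varied more widely in this SD. It was 0.87 for Rps13, 0.51 for Rpl9 and 0.47 for Rps6, but 0.08 for Rpl39.

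Of the small-subunit proteins, Rps14, which lies at the platform of the subunit, stood at 694, 527 and 746 CPM with tamoxifen and 507, 451 and 772 CPM with oil, so the tamoxifen libraries lay within the range of the oil libraries (log2 fold change 0.18, SE 0.22). Rps3, which lines the channel where mRNA enters, stood at 822, 672 and 867 CPM with tamoxifen and 641, 650.0 and 877 CPM with oil, and none of its 100-base words occurred in another gene.

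Rps19, which is needed to mature the RNA of the small subunit and is the gene most often mutated in human Diamond-Blackfan anaemia, stood at 619, 482 and 653 CPM with tamoxifen and 415, 344 and 602 CPM with oil. The groups overlapped through tamoxifen replicate 2 and oil replicate 3 (log2 fold change 0.37, SE 0.22, unadjusted p = 0.122 by edgeR). Rps2, near the mRNA entry site, stood at 488, 392 and 482 CPM with tamoxifen and 353, 311 and 429 CPM with oil (log2 fold change 0.32, SE 0.18). Rps18, in the head of the subunit, stood at 216, 168 and 227 CPM with tamoxifen and 144, 120.2 and 219.5 CPM with oil (log2 fold change 0.34, SE 0.23). In all of these, oil replicate 3 exceeded tamoxifen replicate 2.

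Rps12 had the highest estimate but few counts, 118 over the 6 libraries. It stood at 4.07, 4.31 and 4.96 CPM with tamoxifen and 2.33, 2.01 and 3.32 CPM with oil, with no overlap (log2 fold change 0.80, SE 0.52, unadjusted p = 0.154 by edgeR). Only 11.1% of the 100-base words of its transcript are its own. Rps13, with 138 counts, ranged from 3.31 to 6.48 CPM with tamoxifen and from 1.40 to 6.77 CPM with oil. Rps6, the protein that S6 kinases phosphorylate, stood at 13.7, 4.805 and 6.68 CPM with tamoxifen and 10.1, 6.95 and 10.5 CPM with oil, and 16.4% of its 100-base words were its own.

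Of the large-subunit proteins, Rpl4, which lines the tunnel through which the new chain leaves, held most counts. It stood at 2021, 1473 and 1724 CPM with tamoxifen and 1461, 1351 and 1699 CPM with oil (log2 fold change 0.21, SE 0.17). Rpl32 had every 100-base word to itself and stood at 648, 524 and 723 CPM with tamoxifen and 405, 368 and 683 CPM with oil. Its tamoxifen libraries all exceeded oil replicates 1 and 2, and oil replicate 3 lay between them (log2 fold change 0.38, SE 0.24, unadjusted p = 0.138 by edgeR).

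Rpl3, near the peptidyl transferase centre, stood at 333, 284 and 296 CPM with tamoxifen and 228, 219 and 285 CPM with oil (log2 fold change 0.32, SE 0.17, unadjusted p = 0.087 by edgeR). Its groups overlapped by less than 1 CPM, between tamoxifen replicate 2 and oil replicate 3. Rpl14 averaged 390.4 ± 48.9 CPM with tamoxifen and 317 ± 102 CPM with oil, and Rpl37a averaged 18.9 ± 5.07 CPM with tamoxifen and 13.5 ± 3.91 CPM with oil (SD, n = 3 each). Rpl13a and Rpl8, among the 10 highest by the authors' FPKM, had log2 fold changes of 0.16 with a standard error of 0.19 and 0.10 with a standard error of 0.20.

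The lowest estimates belonged to Rpl35a, at 7.96, 8.78 and 13.0 CPM with tamoxifen and 9.02, 13.9 and 15.5 CPM with oil (log2 fold change -0.37, SE 0.37), and to Rps23 and Rpl34. Rpl34 stood at 58.7, 38.9 and 52.7 CPM with tamoxifen and 46.0, 52.1 and 82.2 CPM with oil (log2 fold change -0.26, SE 0.27). Rpl15, Rpl36 and Rpl27 had log2 fold changes of -0.12, -0.19 and -0.08, each smaller than its standard error. Rpl36a and Rpl9 had 116 and 148 counts in all, and Rpl9 stood at 4.44, 3.31 and 4.01 CPM with tamoxifen and 6.84, 3.66 and 3.51 CPM with oil.

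The stalk of the large subunit, which recruits the elongation factors, is formed by Rplp0 with Rplp1 and Rplp2. Rplp0 stood at 1227, 979.7 and 1294 CPM with tamoxifen and 942, 874 and 1472 CPM with oil. Rplp1 averaged 138 ± 29.99 CPM with tamoxifen and 121 ± 35.5 CPM with oil, and Rplp2 averaged 102 ± 16.8 CPM with tamoxifen and 95.03 ± 40.8 CPM with oil (SD, n = 3 each). The 3 log2 fold changes were 0.09, 0.19 and 0.10, and in each case the highest library or the second highest was oil replicate 3.

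Rps4l, a relative of the X-linked Rps4x at chr6:148354656-148355598 (+), was the member with the smallest p. It stood at 34.8, 23.2 and 34.9 CPM with tamoxifen and 19.6, 17.4 and 18.3 CPM with oil, so the lowest tamoxifen library exceeded the highest oil library (log2 fold change 0.75, SE 0.27, unadjusted p = 0.0176 and adjusted p = 0.999 by edgeR). The authors' deposited table gave it a p-value of 0.0232 and a q-value of 1. Unlike most members it was not high in oil replicate 3, and 98.0% of the 100-base words of its transcript are its own. Rps4x stood at 329.9, 251 and 339 CPM with tamoxifen and 230.4, 214 and 356 CPM with oil, and the groups overlapped.

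Other paralogs showed no such separation. Rps27l, a paralog of Rps27 that p53 is known to induce, stood at 201, 159 and 212 CPM with tamoxifen and 117, 106 and 252 CPM with oil (log2 fold change 0.27, SE 0.30). Rpl22l1, the paralog of Rpl22, stood at 55.01, 37.1 and 51.5 CPM with tamoxifen and 45.6, 36.6 and 73.1 CPM with oil. Rpl7l1 averaged 245 ± 21.9 CPM with tamoxifen and 251 ± 35.8 CPM with oil, and Rpl36al averaged 114 ± 15.1 CPM with tamoxifen and 118 ± 38.1 CPM with oil (SD, n = 3 each). Rps19bp1 averaged 40.3 ± 3.97 CPM with tamoxifen and 38.6 ± 5.50 CPM with oil (SD, n = 3 each).

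The levels of the members were spread over a wide range. Divided by the length of the principal transcript, the mean level over the 6 libraries was 2.43 CPM per kb for the lowest member (Rpl11) and 87.3 for the median. Among the highest, Rpl32 stood at 1080, Rpl4 at 1054 and Rps14 at 1032 CPM per kb. The authors' FPKM put Rpl4 at 1134 and Rpl9 lowest at 0.393, with a median of 29.98. The length behind those FPKM values, recovered from count and FPKM, was 0.521 to 18.5 times the principal transcript's length with a median of 3.39, against 1.59 over all genes, and exceeded it more than 2-fold for 56 members. Of the 10 highest members, 7 were the same by FPKM and by CPM per kb.

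Uniqueness and level are set side by side as a description. A median of 54.8% of a member's 100-base words occurred in no other GENCODE gene (39.4% of 50-base words), and 77 of the 84 members shared words with a gene at another locus, 75 of them with a pseudogene. The 7 with no shared word included Rpl22, Rpl32, Rps3, Rps21, Rps27l and Rps19bp1. The 14 members with at least 90% unique words had a median level of 269.6 CPM per kb, and the 17 members with under 25% a median of 38.3 CPM per kb. Across the 84 members Spearman's rho between uniqueness and level was 0.39, over genes that share the same libraries. The median log2 fold change was 0.16 in the unique group and 0.21 in the other.

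**Figure D3:**
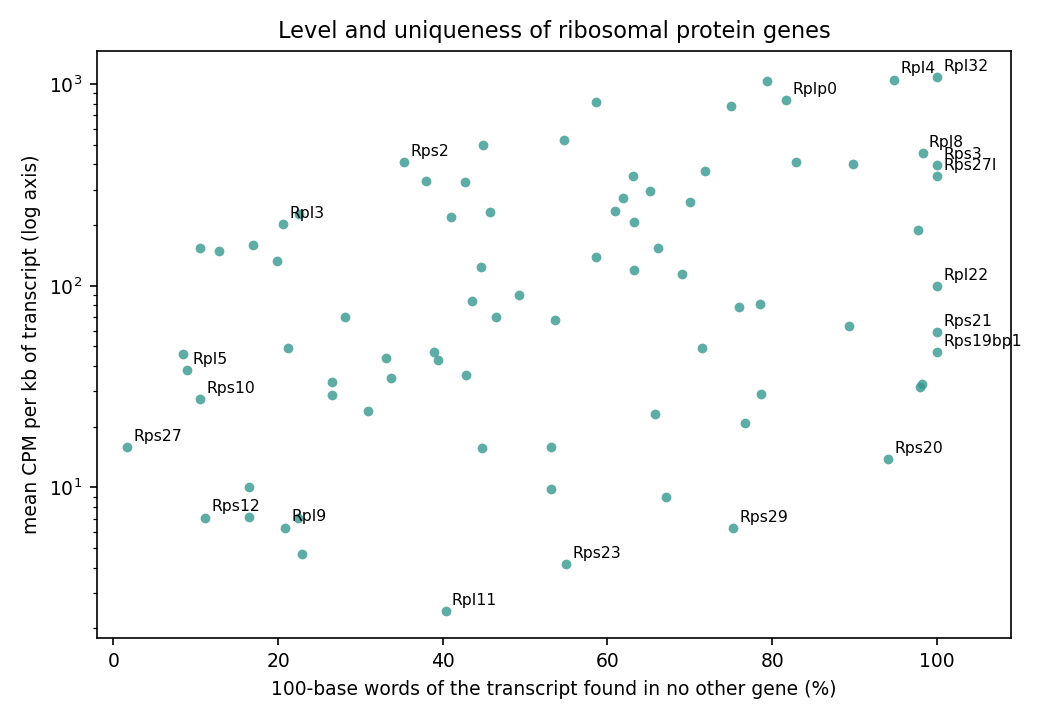
Mean level over the 6 libraries (CPM per kb of principal transcript, log axis) against the percentage of the transcript's 100-base words found in no other gene, for 81 of the 84 ribosomal protein genes, with some named. Members above 1000 CPM per kb had 79.3% or more unique words, while low levels also occurred at high uniqueness, as for Rps20 and Rps29. The level of Rps20 is divided by a principal transcript of 3706 bases, against a member median of 705 bases.

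For 13 members a gene at another locus that shares at least 10% of the 100-base words held more counts than the member itself. Rps23 had 132 counts, against 8022 on Gm5148 and 2130 on C330021F23Rik. Rpl11, which with Rpl5 and the 5S RNA binds Mdm2, had 69 counts, against 1942 on Gm10036. Rpl5 had 2654 counts, against 19405 on Gm15500, the copy whose coding sequence is identical to it. Rps7 had 971 counts, against 11942 on Gm6472 and 4456 on Gm9493. Rpl9 had 148 against 2724 on Rpl9-ps6, Rps27 had 184 against 1947 on Rps27rt, Rpl27 had 893 against 7788 on Rpl27-ps3, and Rpl12 had 667 against 5282 on Gm10275. Outside the count limit, Rpl23a had 18 counts, against 4964 on Rpl23a-ps3. The levels of these genes are uncertain for this reason.

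**Figure D4:**
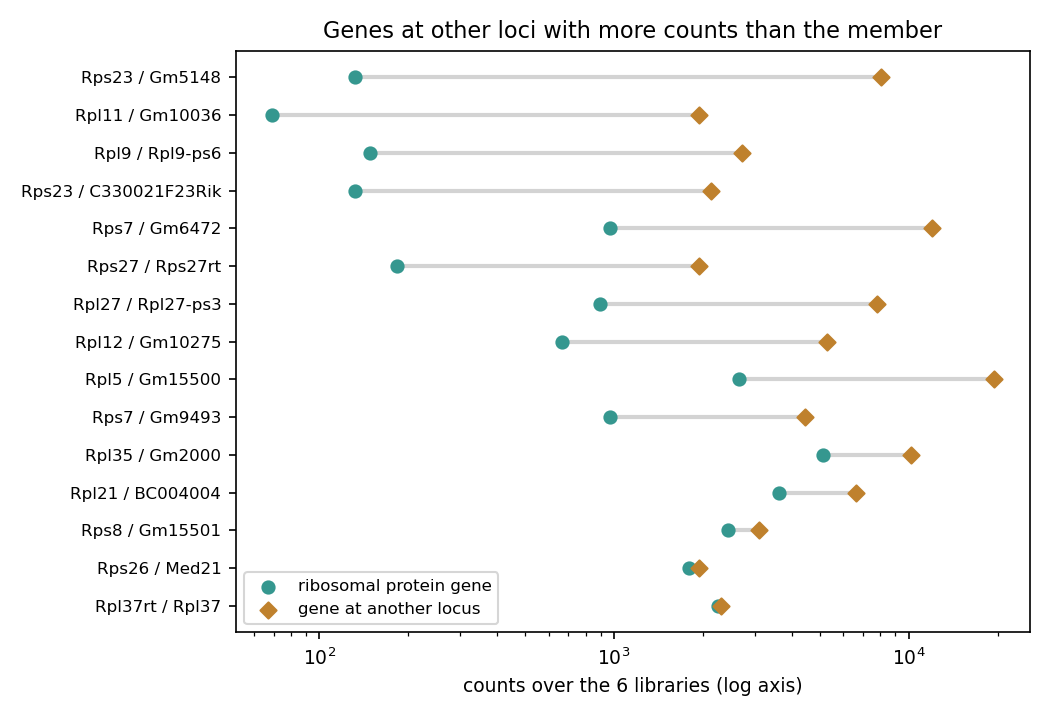
Counts over the 6 libraries (log axis) for the 13 ribosomal protein genes (circles) that are exceeded by a gene at another locus with shared sequence (diamonds), 15 pairs in all, ordered by the ratio. The gap is 60.8-fold for Rps23 and Gm5148 and close to none for Rpl37rt and Rpl37.

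Many of the copies followed an order of libraries like that of the members. They were picked for sequence shared with members, and the assignment of shared reads is not stated, so this likeness is not independent of the members. In the table, 36 genes share at least 10% of a member's 100-base words from another locus, with more counts than the member or fewer. Of these, 28 were tested, and none was called by edgeR at an adjusted p of 0.05 (0.00925% of all genes higher, 0% lower). Estimates lay above 0 for 25 (49.5% of all genes), with a median log2 fold change of 0.19. Oil replicate 3 was the highest library for 17 (21.4% of all genes) and oil replicate 2 the lowest for 22 (22.7% of all genes). Gm15500 stood at 624, 488 and 672 CPM with tamoxifen and 508, 445 and 714 CPM with oil, and Rpl5 at 83.2, 72.2 and 83.4 CPM with tamoxifen and 77.3, 61.5 and 92.1 CPM with oil, the same order of the oil libraries in both. Some of the 36, such as Med21 and Uimc1, do not carry names of ribosomal copies. Uimc1 stood at 116, 102 and 94.9 CPM with tamoxifen and 104, 106 and 106 CPM with oil. With the copies added, the share of counts was 2.06%, 1.70% and 2.07% with tamoxifen and 1.58%, 1.44% and 2.18% with oil. All counts of the 36 genes were added, so this share is not of ribosomal protein sequence alone.

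Other genes of the translation machinery were read from the same fit, and none of those lists held a gene past the adjusted threshold. The ribosomal proteins with other names had a median log2 fold change of 0.26 (3 of 3 above 0), and Rack1, a scaffold on the small subunit, stood at 798, 702 and 784 CPM with tamoxifen and 569, 549.9 and 877 CPM with oil. Fau, which is made as a fusion with a ubiquitin-like protein, showed an estimate of 0.26 on the log2 scale (SE 0.21). The elongation factors had a median of 0.04 (4 of 6 above 0), and Eef1a1, which delivers aminoacyl-tRNA, averaged 1524 ± 157 CPM with tamoxifen and 1246 ± 257 CPM with oil (SD, n = 3 each). Eef1g, a subunit of its exchange factor, had a log2 fold change of 0.20 (SE 0.18).

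Initiation factors had a median of 0.00 (14 of 26 above 0). Eif3c, a core subunit of the factor that joins mRNA to the small subunit, stood at 109.6, 127 and 99.3 CPM with tamoxifen and 156, 146 and 149 CPM with oil, with no overlap (log2 fold change -0.42, unadjusted p = 0.0321 by edgeR). Eif3a, its largest subunit, had a log2 fold change of -0.39 (SE 0.20). Ribosome biogenesis genes had a median of 0.03 (22 of 40 above 0), with Tsr1 and Utp20, both needed for small-subunit assembly, at log2 fold changes of -0.74 (SE 0.32) and -1.04 (SE 0.51). Regulators of ribosomal protein synthesis had a median of -0.03 (7 of 15 above 0), with Eif4ebp2 and Tsc1, which act against cap-dependent initiation and mTOR, at -1.13 (SE 0.63) and -0.56 (SE 0.34). The snoRNA host genes, several of which carry a pyrimidine tract like the members, had a median of 0.13 (7 of 9 above 0), with Snhg12 and Epb41l4aos at 0.77 (SE 0.69) and 0.59 (SE 0.58).

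The list of genes around p53, to which free Rpl5 and Rpl11 are linked through Mdm2, had the highest median of these lists, 0.57, with 6 of 6 above 0. Cdkn1a, an inhibitor of cyclin-dependent kinases, stood at 64.8, 72.4 and 65.3 CPM with tamoxifen and 38.6, 45.4 and 33.2 CPM with oil, with no overlap (log2 fold change 0.79, SE 0.21, unadjusted p = 0.00364 and adjusted p = 0.919 by edgeR). Ccng1, a cyclin induced by p53, stood at 136, 167 and 128 CPM with tamoxifen and 87.5, 101 and 67.6 CPM with oil, also with no overlap (log2 fold change 0.75, SE 0.21, adjusted p = 0.935 by edgeR). In both genes oil replicate 3 was the lowest library, where most ribosomal protein genes were highest.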

How the data were processed

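RNA-seq libraries were made from 3 tamoxifen and 3 oil samples of liver lymphocytes. Per the labels' protocols, RNA was reverse transcribed in the cell lysate with a SMARTer Ultra Low kit, followed by PCR of the cDNA with no molecular identifiers, so floors cover counting error only. The authors deposited, per the file headers, for each gene and library a whole-number count and an FPKM value, the group means of FPKM, and a p-value and q-value of their own comparison. The submitters' processing notes name HISAT2, StringTie and the build mm10; the strand setting, the counter and the handling of reads that match several genes are not stated there. Symbols were those of the table, except for 20 that had become dates and were restored through their identifiers.

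CPM is a count scaled to an effective library size of 1000000, the total of the tested genes times the TMM factor; shares of counts use the whole library total. The deposited counts were fitted with edgeR 4.0.16 in R 4.3.3 (glmQLFit and glmQLFTest), using all 6 libraries, with TMM factors, filterByExpr by group, group as the only term and Benjamini-Hochberg adjustment over all tested genes at 0.05; SE is the log2 fold change divided by the root of F. DESeq2 1.42.0, limma 3.58.1 on the counts through voom and on log2 FPKM, other scalings and filters, a length covariate, a replicate block and leaving out each library were tried. The script was tested on simulated data. Uniqueness is the percentage of 100-base words of the shortest APPRIS principal transcript that occur in no other GENCODE M21 transcript on either strand; GENCODE M21 and the RefSeq promoters are on the same assembly as mm10. Members and lists were chosen with earlier results of these data known. Genes were named by rule: the 10 smallest p in each direction, the 10 highest and 5 lowest FPKM, the stalk, the paralogs, genes nearest the count limit and the 2 smallest p of each other list; further members named for their level, uniqueness, spread or copies were chosen after their values were seen. The markers were for group 1 innate lymphoid, T, B, macrophage and Kupffer, neutrophil, hepatocyte, endothelial and erythroid cells. Some genes that this rule selects are not reported here and were left out of the plots that name or place single genes; they stay in the counts and medians. Replicates of a group differed beyond sampling noise.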

Additional observations from a re-analysis of the deposited data

How the results depend on the processing

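The number of ribosomal protein genes called was 0 under every alternative run. The median log2 fold change of the members stayed between 0.12 and 0.17 under other scalings, tools, filters, the FPKM values and other member sets. It was 0.00 with the length covariate, whose slopes came from these same counts. With 1 library left out it ran from -0.02 to 0.42, the lowest without oil replicate 2 and the highest without oil replicate 3. The log2 ratio of the summed share was 0.16 and ran from 0.05 to 0.36 when 1 library was left out. Of all genes, 1 was called; DESeq2 called 21, limma-voom 1, no filter on low counts 6, the length covariate 11, limma on FPKM 0 with either pseudocount and 0 with no filter, and leaving out 1 library 0 to 6. With the replicate number as a block 0 genes were called and the member median was 0.17. Deviations from the group mean correlated at -0.07, 0.27 and 0.16 between same-numbered libraries, and at -0.33 to 0.17 between differently numbered libraries. Such deviations sum to 0 within a group of 3, so these values cannot tell whether the numbers pair the samples. Some single log2 fold changes, none of them called, turned sign. With the length covariate they were -0.011 for Rpl8, -0.052 for Rplp0, -0.15 for Rps27 and -0.066 for Rplp2. With 1 library left out they ran from -0.042 to 0.34 for Rpl8, -0.049 to 0.36 for Rplp0, -0.17 to 0.24 for Rps27, -0.075 to 0.50 for Rplp2, -0.19 to 0.47 for Rpl36a, -0.020 to 0.18 for Rps19bp1, -0.12 to 0.080 for Rpl7l1, -0.22 to 0.22 for Rpl36al, -0.42 to 0.023 for Rpl34, -0.43 to 0.13 for Rpl9, -0.31 to 0.053 for Rpl36, -0.24 to 0.13 for Rps7, -0.31 to 0.21 for Rpl22l1, -0.34 to 0.11 for Rpl15, -0.21 to 0.092 for Rpl27 and -0.69 to 0.15 for Rps6. The cause was not tested. Rps12 and Rps13 had few counts, and 11.1% and 22.4% of their 100-base words were their own. What limits their values was not tested. The set of members with at least 90% unique words and the addition of the copies were chosen after seeing the data.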
